A study of Homo sapiens with 12 samples.

Results

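Mitochondrial ribosomal proteins were followed in RNA sequencing data of a human leukemia cell line. The genes were all those whose identifier maps to a protein-coding symbol that starts with MRPL or MRPS and a number, which gave 78 of the 61487 gene identifiers in the count table; 86 other identifiers with symbols of this form were not protein-coding and were left out. The cells were MOLM14, an established acute myeloid leukemia line, engineered with a doxycycline-inducible shRNA that targets RIP140, a coregulator of nuclear receptors whose gene is NRIP1. All 12 libraries came from this engineered line, with 3 biological replicates in each of 4 groups. Untreated cells received neither agent. The ATRA group received all-trans retinoic acid at 1 µM for 48 h, the DOX group doxycycline at 50 ng/mL, renewed every other day, and the combined group both. How long the DOX group was exposed is not clearly given in the sources used here. Every group carries the shRNA construct, and no group lacking it was given DOX, so induction of the shRNA and doxycycline itself cannot be told apart. Whether the line is 1 clone is not given in the sources used here.

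The mitochondrial ribosome translates the few messenger RNAs that mitochondrial DNA encodes, all of them for subunits of the respiratory chain and ATP synthase. Its RNA is made inside the organelle from MT-RNR1 (small subunit) and MT-RNR2 (large subunit), whereas its proteins are encoded in the nucleus, made in the cytosol and imported. Some of these proteins descend from bacterial ribosomal proteins and others were added in mitochondria. Doxycycline, a tetracycline, blocks bacterial ribosomes and can also slow translation in mitochondria. By their place in the human particle, 51 of the genes encode large subunit proteins and 26 small subunit proteins; MRPS30 and MRPS18A count with the large subunit despite their names. MRPS36 counts with neither, since its product is a subunit of the 2-oxoglutarate dehydrogenase complex. By their standard names, 46 of the proteins have a bacterial counterpart and 31 are specific to mitochondria. MRPS18A and MRPS18B count as specific to mitochondria by name, although they are paralogs of MRPS18C, the counterpart of bacterial S18.

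The depth of the libraries (summed gene counts, in units of 1e6) was between 2.69 (DOX replicate 3) and 19.36 (DOX replicate 2). The targeted gene did not overlap between libraries with and without DOX, with a log2 change of −1.77 ± 0.13 (SE) for DOX against untreated and −1.22 ± 0.13 for combined against ATRA. The share of counts on the 2 mitochondrial ribosomal RNA genes was 2.54, 2.85 and 4.6% for untreated libraries and 2.18, 1.02 and 1.3% for DOX libraries, and it was 2.09, 2.74 and 2.64% with ATRA alone and 1.98, 2.02 and 1.23% in the combined group. Myeloid marker genes summed to 1420 to 2050 CPM (counts per 1e6 counts, TMM-scaled), although CD14 was at or near 0. Lymphoid markers summed to 1.63 to 3.28 CPM, with CD3E at 0 in all libraries, and erythroid markers to at most 0.425 CPM. Fibroblast and epithelial markers summed to 44.3 to 53.4 CPM in untreated, 32.4 to 38.2 in ATRA, 60.1 to 72.1 in DOX and 39.8 to 54.8 in combined libraries, nearly all of it from KRT8 and KRT18, while EPCAM was at 0. These sums were highest in the DOX group, and their part in the results below was not tested. In bulk RNA, fewer cells of a type and less RNA per cell cannot be told apart.

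Together the 78 genes held 0.461 to 0.607% of a library's counts. Levels between genes are compared here as CPM per kilobase of annotated exon. On that scale the highest were MRPS34 at 121, MRPL18 at 97.1, MRPL14 at 82.9 and MRPL54 at 73.8. The lowest were MRPL46 at 0.837, MRPL38 at 0.803, MRPS24 at 0.223 and MRPL53, which had no count in any library. A count of 0 allows up to 0.0203 MRPL53 counts per 1e6 counts over the 12 libraries (3 counts of the total, counting error only). In the annotation, 45.2% of the MRPL53 exon bases are shared with CCDC142 on the same strand, and MRPS24, with 79 counts in all, shares 606 bases with the readthrough gene URGCP-MRPS24. Reads that fall on 2 genes can be lost or split in such counting. These 2 genes did not pass the filter on low counts, which left 76 of the 78 tested. MRPL38 passed with as few as 8 counts in a library.

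The first comparison, DOX against untreated cells, asks what DOX with shRNA induction does without ATRA. Mitochondrial ribosomal protein genes were higher after DOX: 39 of the 76 tested were called higher and 0 lower (edgeR quasi-likelihood test, Benjamini-Hochberg adjusted p under 0.05 over 16104 genes). Of all genes tested, 8.14% were called higher and 6.92% lower. The changes were small and alike, with folds from 1.23 to 1.63 among the genes called. The median log2 change of the 76 was 0.34 against 0.01 over all genes tested, 73 of them lay above 0, and they ran from −0.09 for MRPS25 to 0.71 for MRPS36. In 45 genes all 3 DOX libraries exceeded all 3 untreated libraries (17.0% of all genes tested), and in 0 they were all below (13.9%). DESeq2 called 37 higher and 0 lower; at an unadjusted p under 0.05, 61 passed in edgeR.

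The summed level of the 78 genes was 4857, 4870 and 4605 CPM in untreated and 5205, 6451 and 6000 CPM in DOX libraries. It was 5019, 5141 and 4652 CPM in ATRA and 5194, 5482 and 5764 CPM in combined libraries. The DOX libraries thus lay above every untreated library, but apart from each other: DOX replicate 1 held the lowest of the 3 DOX values in 65 of the 76 genes, and DOX replicate 2 the highest in 57. DOX replicate 1 also kept the most mitochondrial ribosomal RNA of its group (2.18%) and DOX replicate 2 the least (1.02%). Untreated replicate 3, with the most mitochondrial ribosomal RNA of all libraries (4.6%), had the lowest sum of all 12 and held the lowest untreated value in 47 genes. This inverse order did not hold throughout. In the ATRA group, replicate 2 had the most mitochondrial ribosomal RNA (2.74%) and also the highest sum. ATRA replicate 3 (2.64%) had the lowest ATRA sum and the lowest ATRA value in 53 genes. In the combined group, replicate 3 had the least (1.23%) and the highest sum, but replicate 1 (1.98%) had a lower sum than replicate 2 (2.02%).

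**Figure D1:**
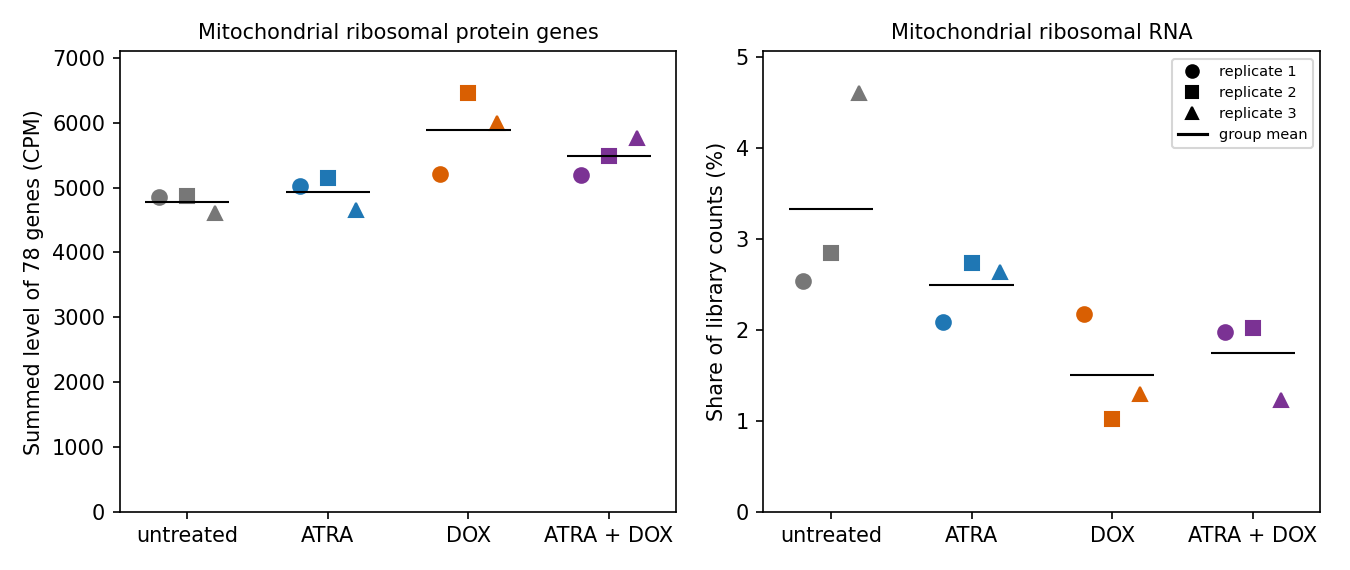
Left, the summed level of the 78 genes in CPM in each library of the 4 groups; right, the share of library counts on MT-RNR1 and MT-RNR2 in percent. Symbols are replicates and lines are group means. The DOX libraries range from 5205 to 6451 CPM, above the untreated ones, and hold 1.02 to 2.18% mitochondrial ribosomal RNA against 2.54 to 4.6% in untreated libraries.

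In the large subunit 28 of 50 tested genes rose, with a median log2 change of 0.35. MRPL24 (chromosome 1, positions 156737303 to 156741590 of GRCh38), which encodes a protein known from bacteria as an early binder of the large subunit RNA, was at 75.2, 74.8 and 75.2 CPM in untreated and at 91.4, 108 and 108 CPM in DOX libraries. The groups did not overlap, and the log2 change was 0.44 ± 0.08 (adjusted p = 0.0025). MRPL36 (chromosome 5, positions 1798386 to 1801366), the counterpart of the smallest bacterial large subunit protein, was at 45.9, 51.6 and 44.5 CPM without and 56.3, 82.6 and 82.2 CPM with DOX. Its lowest DOX library stood close to the highest untreated one, and its change was 0.62 ± 0.13 (adjusted p = 0.004). MRPL28 went from 94.4 ± 0.818 (SD, n = 3) to 129 ± 14.6 CPM (0.45 ± 0.09, adjusted p = 0.00401). MRPL1, the counterpart of the bacterial L1 protein at the tRNA exit side, went from 44.1 ± 0.467 to 65.5 ± 11.7 CPM (0.56 ± 0.13, adjusted p = 0.00715). The spread of these genes was wider in the DOX group than in the untreated group.

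The stalk that recruits translation factors is built on MRPL10, MRPL11 and MRPL12, and none of these passed: their log2 changes were 0.11 ± 0.10, 0.32 ± 0.12 and 0.45 ± 0.18, with adjusted p = 0.44, 0.0609 and 0.0838. The last of these genes shares 68.2% of its exon bases with another annotated gene. MRPL45, which faces the inner membrane, was at 0.24 ± 0.10 (adjusted p = 0.0913), and MRPL58, a peptidyl-tRNA hydrolase built into the large subunit, at 0.31 ± 0.13 (adjusted p = 0.0993). MRPS30, a large subunit protein specific to mitochondria, was among the flattest at 0.06 ± 0.08, with 108, 109 and 95.6 CPM in untreated and 106, 115 and 101 CPM in DOX libraries. These ranges overlap.

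In the small subunit 10 of 25 rose, with a median of 0.29. MRPS15 was at 72.2, 65.9 and 64.9 CPM in untreated and 85.4, 90.1 and 102 CPM in DOX libraries (0.44 ± 0.08, adjusted p = 0.00257), without overlap. MRPS23, specific to mitochondria, was at 57.4, 58.9 and 54.3 against 68.1, 88.9 and 80.2 CPM (0.48 ± 0.10, adjusted p = 0.00373). MRPS7, which in bacteria starts assembly of the small subunit head, went from 61.7 ± 3.08 to 81.6 ± 3.68 CPM (0.41 ± 0.09, adjusted p = 0.0044), and MRPS21 from 96.4 ± 3.1 to 134 ± 22.6 CPM (0.47 ± 0.11, adjusted p = 0.00657). MRPS12, at the decoding centre, rose by 0.35 ± 0.11 (adjusted p = 0.0345), while the head proteins MRPS10 and MRPS14 were at 0.20 ± 0.09 and 0.18 ± 0.10 and did not pass (adjusted p = 0.116 and 0.214). The 3 paralogs of bacterial S18 differed in their calls. MRPS18C was called higher (0.45 ± 0.11, adjusted p = 0.0115), whereas MRPS18A at 0.26 ± 0.11 and MRPS18B at 0.14 ± 0.08 were not (adjusted p = 0.111 and 0.267), and the differences between the paralogs were not tested.

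MRPS36 (chromosome 5, positions 69217760 to 69230129), whose product works in the citric acid cycle rather than in the ribosome, had the largest log2 change of the 76, 0.71 ± 0.11 (adjusted p = 0.000485). It was at 18.4, 20.7 and 16.7 CPM in untreated and at 27.3, 31.8 and 32.3 CPM in DOX libraries. Without it, 38 of 75 genes were called. By origin, 27 of 45 genes with a bacterial counterpart and 11 of 30 genes specific to mitochondria were called, with medians of 0.37 and 0.29; a difference between these classes was not tested. Genes that share no exon base with another annotated gene were called at 22 of 37 and those that do at 17 of 39. The 43 overlapping partner genes that were tested had 5 higher and 3 lower calls and a median of 0.08. The mitochondrial ribosomal protein genes are mostly short, and their median change was 0.40 among the shortest when all genes were put into 5 equal bins of exon length (23 genes), 0.31 in the second bin (32), 0.38 in the third (10) and 0.24 in the fourth (10), and the 1 gene among the longest was at 0.01. The medians of all genes in these bins were −0.04, 0.12, 0.07, 0.01 and −0.13.

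Letters before the start sites of these genes were read from the RefSeq promoter table (GRCh38.p14), which held 69 of the 78 genes. In the 250 bases before the start, 3 motifs were searched on both strands. CCGGAAG, the core bound by ETS factors, occurred in 23 of 69 (33.3%), against 11.8% of 15842 protein-coding promoters and 8.82% of all 27305. The palindrome bound by NRF1 (GCGCA, any base, GCGC) occurred in 11.6% against 7.65% and 5.53%, and AAGATGGC, bound by YY1, in 7.25% against 1.39% and 1.37%. The ETS letters end in AAG, with which the YY1 letters begin, so the same bases can count for both. Matches on the same bases were not removed. Among the genes with a promoter entry, the ETS letters occurred in 13 of the 34 called higher with DOX (38.2%) and in 10 of the 35 others (28.6%). These 35 include MRPS24 and MRPL53, which did not pass the filter on low counts. A difference between these classes was not tested. Of the 23 genes, 9 held the ETS letters in a stretch without annotated exons. The 4 of these with the smallest p for DOX are printed to show where matches outside annotated exons lie. Letters run 5′ to 3′ on the gene's strand, with matches to any of the 3 motifs in capitals and exonic bases left out. A match is not evidence of binding.
MRPL47: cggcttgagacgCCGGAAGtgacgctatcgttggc
MRPL20: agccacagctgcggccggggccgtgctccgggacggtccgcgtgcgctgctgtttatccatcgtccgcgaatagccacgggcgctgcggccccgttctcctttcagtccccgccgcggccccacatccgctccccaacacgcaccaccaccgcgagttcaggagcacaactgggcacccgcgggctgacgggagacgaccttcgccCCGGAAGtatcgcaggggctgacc
MRPS34: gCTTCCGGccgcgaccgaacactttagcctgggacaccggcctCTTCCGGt
MRPL3: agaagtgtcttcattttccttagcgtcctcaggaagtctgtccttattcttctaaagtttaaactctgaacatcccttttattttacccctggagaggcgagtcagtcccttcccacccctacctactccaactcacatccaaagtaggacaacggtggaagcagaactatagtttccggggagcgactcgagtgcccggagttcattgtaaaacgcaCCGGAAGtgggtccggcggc
The MRPL47 stretch lies at chr3:179604655-179604689 (minus strand), with its match starting 39 bases before the start site. That of MRPL20 lies at chr1:1407314-1407543 (minus strand), with the printed match at 44 bases. MRPL20 has 2 ETS matches in the 250 bases, and the other, not wholly within the stretch, begins nearer the start site. MRPS34, at chr16:1773156-1773206 (minus strand), has the reverse complement CTTCCGG at 71 and 29 bases. MRPS34 has 3 ETS matches in the 250 bases, of which these are the ones within the stretch. MRPL3, at chr3:131502984-131503221 (minus strand), has its match at 32 bases. Their log2 changes with DOX were 0.58 ± 0.13, 0.43 ± 0.10, 0.40 ± 0.11 and 0.30 ± 0.10.

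The DOX count rested on few libraries. It was 39 with all libraries, 8 without DOX replicate 2, 61 without DOX replicate 1, 14 without untreated replicate 3 and 1 without both untreated replicate 3 and DOX replicate 3, while the median stayed between 0.23 and 0.44. Calls over all genes moved in the same direction in these settings, from 2425 to 714, 4383, 808 and 174 in the order given. At equal depth 18 mitochondrial ribosomal protein genes were called, where calls over all genes were 1080. With the log2 share of mitochondrial ribosomal RNA as a model term, 0 of these genes were called (5 at an unadjusted p under 0.05). With that term the median was 0.08, 57 of the 76 genes lay above 0, and calls over all genes went from 2425 to 88. The share moves with DOX, so the term and the group cannot be told apart in full.

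**Figure D2:**
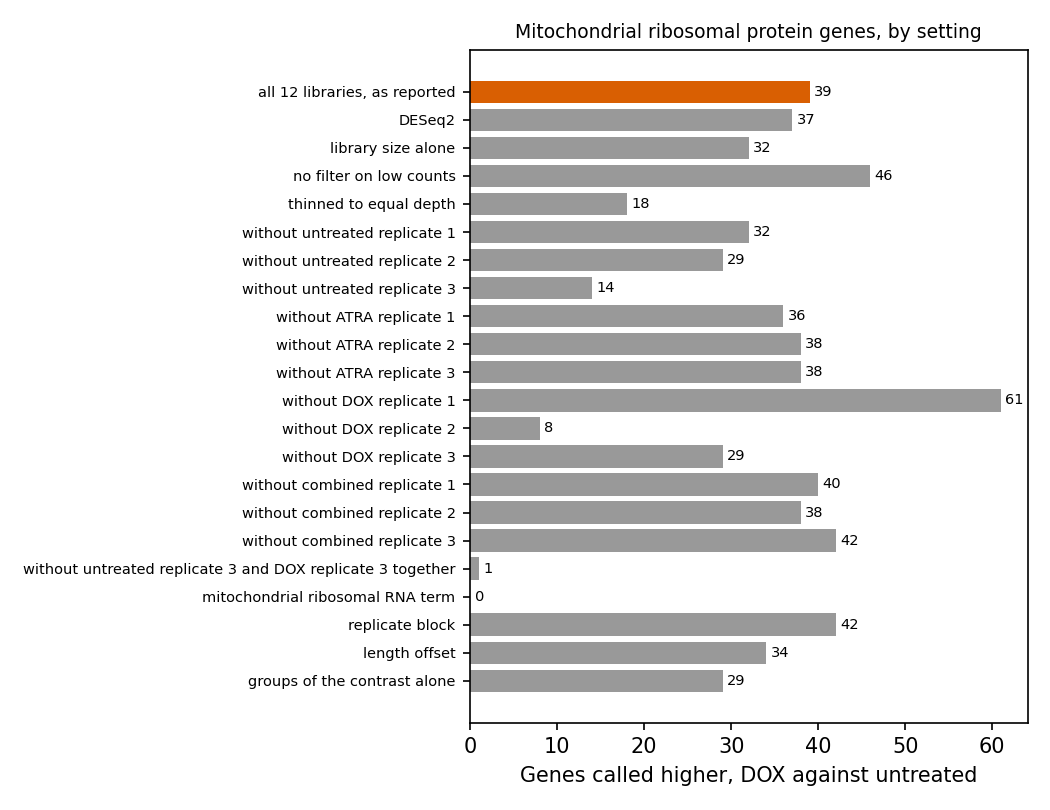
Number of mitochondrial ribosomal protein genes called higher for DOX against untreated (x axis) under each analysis setting (y axis); the coloured bar is the reported fit. The count runs from 0 with the mitochondrial ribosomal RNA term to 61 without DOX replicate 1.

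The second comparison, combined against ATRA, asks the same of DOX in cells exposed to ATRA. None of the 76 genes passed the threshold in edgeR, 14 did at an unadjusted p under 0.05, and DESeq2 called 0; over all genes 1.89% were called higher and 2.56% lower, 4.45% in all. The median log2 change was 0.16 against 0 over all genes, and 70 of the 76 lay above 0. All 3 combined libraries exceeded all 3 ATRA libraries in 26 genes (13.1% of all genes tested) and lay below them in 0 (13.4%). The lowest value was that of the weakly counted MRPL38 at −0.44 ± 0.26, and the highest that of MRPL1 at 0.37 ± 0.12 (adjusted p = 0.0956). The smallest adjusted p, 0.0623, belonged to MRPS31 at 0.34, chosen after its value was seen. The count reached 4 without DOX replicate 1, 4 with the 2 groups fitted alone, and 3 without DOX replicate 2. In these settings, calls over all genes went from 717 to 1048, 1092 and 1045.

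In 21 genes the libraries with DOX lay above those without it in both comparisons, which 5.97% of all genes tested did. By the ranks of their p-values these were led by MRPL24, MRPL36, MRPL1, MRPL28 and MRPL22. MRPL24 was at 85.3, 85 and 75.7 CPM in ATRA and at 100, 97.5 and 97.1 CPM in combined libraries, a log2 change of 0.26 ± 0.08 (adjusted p = 0.0746). MRPL36 was at 58.1, 48.6 and 46.9 against 66.4, 59.8 and 69.9 CPM, 0.35 ± 0.12 (adjusted p = 0.123). MRPL22, which lines the exit tunnel in bacteria, was at 41.8, 35.7 and 35.2 against 42, 45.4 and 47.1 CPM, 0.25 ± 0.10 (adjusted p = 0.174). The gap between the groups was thus narrow in the last 2 of these genes. MRPL35, MRPL44, MRPS9 and MRPL14 gave 0.24, 0.21, 0.22 and 0.26, with adjusted p from 0.112 to 0.199, after DOX changes of 0.34, 0.34, 0.40 and 0.35.

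The difference between both DOX effects was tested as an interaction, which is the same number as the difference between the effects of ATRA in cells with and without DOX. It lay below 0 in 72 of the 76 genes with a median of −0.19 (−0.01 over all genes), but 0 passed in edgeR (0.310% of all genes did, 0.0559% higher and 0.255% lower), 10 passed at an unadjusted p under 0.05, and DESeq2 called 0. A smaller DOX effect in the presence of ATRA was therefore not shown for any gene with all libraries. Without DOX replicate 1, 7 of these genes were called lower, while calls over all genes went from 50 to 775. The value furthest from 0 was that of MRPS36, −0.52 ± 0.15 (adjusted p = 0.162).

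**Figure D3:**
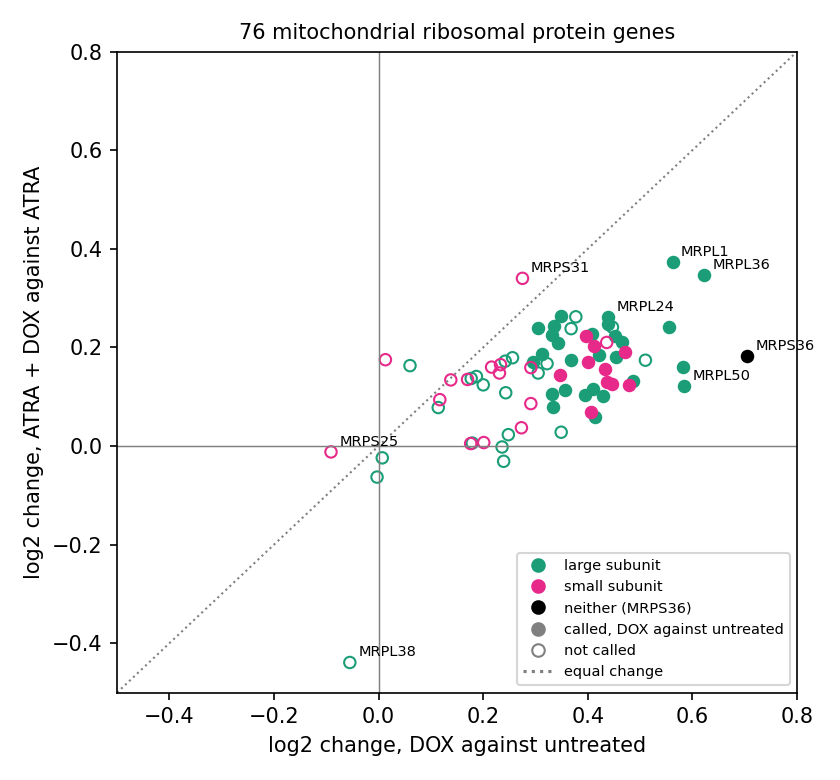
Each point is 1 of the 76 tested genes, with the log2 change for DOX against untreated on the x axis and for combined against ATRA on the y axis; colour gives the subunit, filled points were called in the first comparison, and the dotted line marks equal change. Most points lie above 0 on both axes and below the dotted line, and no gene was called on the y axis.

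The third comparison, ATRA against untreated, concerns the retinoid by itself. Calls were fewer than over all genes: 8 of 76 were called higher and 3 lower, where 15.7% and 13.2% of all genes were. The median was 0.07 against −0.02 over all genes, and 54 of the 76 lay above 0 (7772 of all 16104). A few single genes rose well beyond the rest. MRPS6 (chromosome 21, positions 34073224 to 34143034), a small subunit protein of bacterial descent, was at 14.4, 17.2 and 15.1 CPM in untreated and at 38.5, 36.7 and 36 CPM in ATRA libraries, a change of 1.25 ± 0.12 (edgeR adjusted p = 1.48e-08). MRPL34 (chromosome 19, positions 17292609 to 17306843), a large subunit protein of bacterial descent, went from 60.9, 59.4 and 54.3 to 108, 111 and 94.4 CPM, 0.84 ± 0.09 (adjusted p = 1.94e-07). MRPL17 (chromosome 11, positions 6680782 to 6683401), next to the tunnel exit in bacteria, went from 58.7, 66.5 and 64.9 to 98, 91.3 and 82.1 CPM, 0.51 ± 0.09 (adjusted p = 5.95e-05). MRPS36 was at 28.1, 28.7 and 29.2 CPM in ATRA libraries, 0.63 ± 0.11 above untreated cells (adjusted p = 7.4e-05). In these 4 genes the ATRA and untreated libraries were far apart, and the 4 calls held in each of the 21 alternative settings run.

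MRPS15, MRPS11, MRPL49 and MRPS7 were called higher by 0.23 to 0.29, with adjusted p from 0.0153 to 0.0433. Called lower were MRPS27, a small subunit protein of the pentatricopeptide repeat family, from 194, 189 and 162 to 135, 151 and 154 CPM (−0.31 ± 0.08, adjusted p = 0.00629), MRPL23 from 29.1 ± 1.22 to 21.5 ± 3.3 CPM (−0.44 ± 0.14, adjusted p = 0.0191) and MRPS30 (−0.22 ± 0.08, adjusted p = 0.0456). Each of these 7 calls was lost in 2 to 13 of the 21 settings. The count was 5 without ATRA replicate 1 and 6 without ATRA replicate 2, untreated replicate 2 or untreated replicate 3. It was 7 without untreated replicate 1 or with DESeq2. Calls over all genes, 4643 in the main fit, were 3485 to 4011 in these settings.

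The 2 genes with the largest ATRA changes share exon bases with other genes, and the strand setting of the counting is not given in the sources used here. MRPS6 shares 273 bases with SLC5A3, a myo-inositol transporter gene on the same strand, which stood at 26.6, 25.8 and 30.3 CPM in untreated and at 63.9, 59.6 and 76.1 CPM in ATRA libraries (1.27, adjusted p = 1.41e-08). With DOX alone the pair went apart: SLC5A3 was called lower at −0.50 (adjusted p = 0.0155) and MRPS6 higher at 0.43 ± 0.13 (adjusted p = 0.0255). That MRPS6 call was lost in 8 of the 21 alternative settings. MRPL34 shares 223 bases with ABHD8, a hydrolase-fold gene on the opposite strand, which changed by 1.09 with ATRA (adjusted p = 4.78e-05) and by −0.40 with DOX (adjusted p = 0.18). In combined against DOX both partners rose, SLC5A3 by 1.36 (adjusted p = 2.93e-08) and ABHD8 by 1.304 (adjusted p = 2.74e-05), as MRPS6 and MRPL34 did. How far reads of a partner enter the counts of MRPS6 or MRPL34 was not tested. MRPL17 and MRPS36 share no exon base with another annotated gene.

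**Figure D4:**
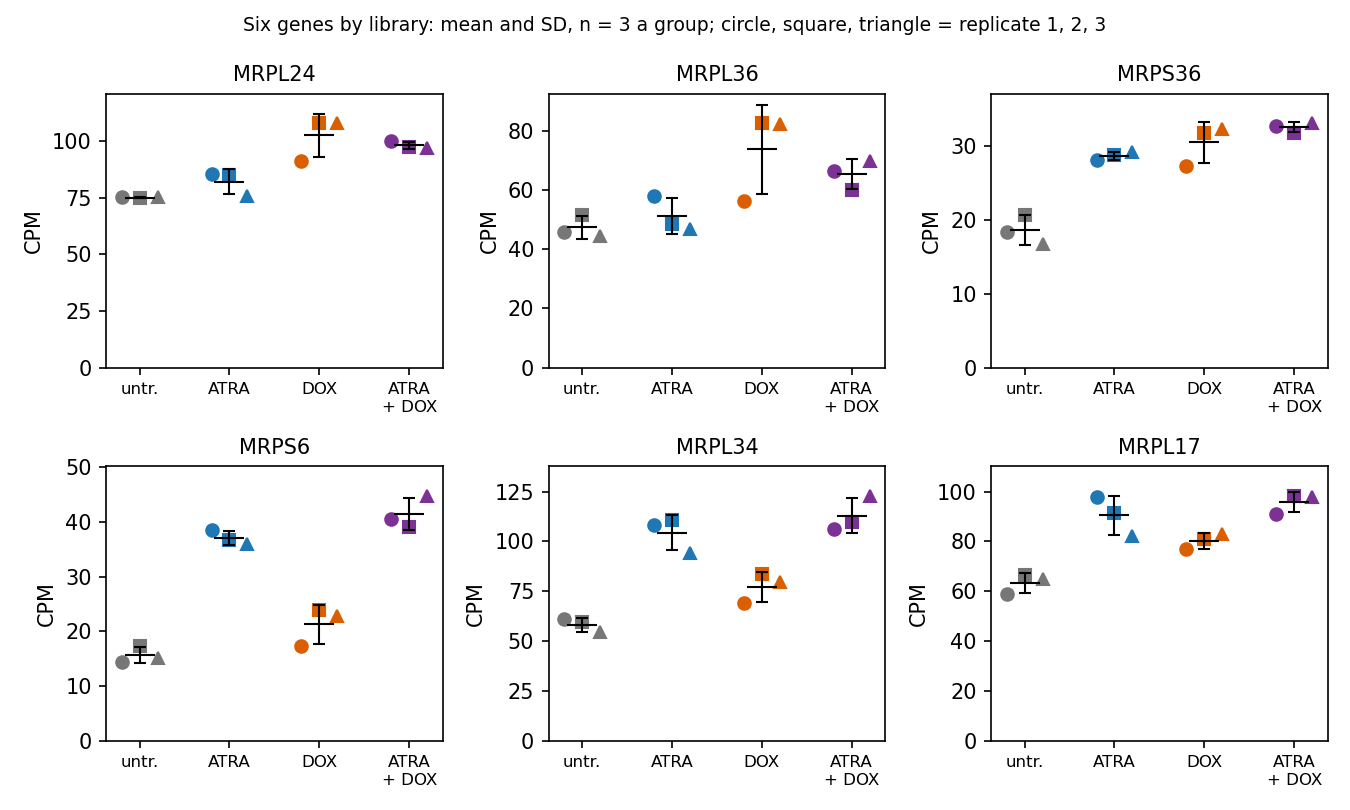
Level in CPM (y axis, from 0) of 6 genes in each library of the 4 groups, with mean and SD (n = 3). MRPL24 and MRPL36 have higher means in both groups with DOX, MRPS6, MRPL34 and MRPL17 have their highest means in both groups with ATRA, and MRPS36 is lowest in untreated cells.

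The fourth comparison, combined against DOX, asks what ATRA does in cells with DOX. Here 3 of 76 genes were called higher (10.7% of all genes) and 10 lower (8.21%), with a median of −0.12 against −0.01. MRPS6, MRPL34 and MRPL17 were the 3 higher genes, and all 3 had been called with ATRA alone; both comparisons use different libraries. MRPS6 went from 17.2, 23.8 and 22.7 CPM in DOX to 40.5, 39 and 44.8 CPM in combined libraries (0.98 ± 0.12, adjusted p = 1.59e-06). MRPL34 went from 68.9, 83.5 and 79.5 to 106, 110 and 123 CPM (0.55 ± 0.09, adjusted p = 0.000145), and MRPL17 from 80.3 ± 3.14 to 95.8 ± 4.19 CPM (0.26 ± 0.09, adjusted p = 0.037). MRPS36 did not differ measurably, at 27.3, 31.8 and 32.3 against 32.7, 31.8 and 33.1 CPM (0.11 ± 0.11, adjusted p = 0.544).

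The 10 lower genes encode large subunit proteins, as do 50 of the 76 tested; the medians were −0.13 for the large and −0.10 for the small subunit, and a difference between the subunits was not tested. They were MRPL33 (57.2 ± 5.01 to 42.8 ± 4.82 CPM, −0.42 ± 0.11, adjusted p = 0.00679), MRPL48, MRPL23, MRPL30, MRPL37, MRPL57, MRPL51, MRPL52, MRPL11 and MRPL32. MRPL48 was at 25.9, 39.7 and 28.8 CPM in DOX and 23.3, 22.6 and 21.4 CPM in combined libraries, with DOX replicate 2 far above the rest (−0.52 ± 0.14, adjusted p = 0.00832). MRPL23, lower with ATRA in both comparisons, was at 24.8, 33.6 and 27.6 against 17.9, 24.9 and 19 CPM, which overlap (−0.50 ± 0.14, adjusted p = 0.0148). Of the 10, 4 had been called higher with DOX alone; the DOX libraries serve in both comparisons. The number of calls was 3, all higher, without DOX replicate 2, 28 without DOX replicate 1 and 6 without DOX replicate 3. It was 5 without combined replicate 1 and 7 without combined replicate 2. In the order given, calls over all genes went from 3052 to 2208, 3929, 2547, 2710 and 2325.

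The fifth comparison set the combined group against untreated cells. Of the 76 genes 33 were called higher and 1 lower, where 19.5% and 18.3% of all genes were, with a median of 0.25 (−0.01 over all genes). MRPS6 (1.41 ± 0.12), MRPL34 (0.96 ± 0.09), MRPS36 (0.81 ± 0.11) and MRPL17 (0.59 ± 0.09) led, with edgeR adjusted p of 8.87e-06 or less, followed by MRPL49 (0.51 ± 0.10), MRPS15 (0.40 ± 0.08), MRPL24 (0.39 ± 0.08) and MRPL1 (0.58 ± 0.12), at 0.000975 or less. The lower gene was MRPL23, at −0.50 ± 0.14 (adjusted p = 0.00618). Of the 39 genes called with DOX alone, 24 were called higher here, in a comparison that shares the untreated libraries. The number of calls was 18 without untreated replicate 3, 19 without combined replicate 3 and 22 without combined replicate 2. In these settings, calls over all genes went from 6094 to 4393, 4789 and 4974. With the mitochondrial ribosomal RNA term 9 genes were called, 7 higher and 2 lower, and calls over all genes were 3378. MRPS6, MRPL34, MRPL17, MRPS36, MRPL49, MRPL24, MRPS15 and MRPL23 kept their calls with that term.

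**Figure D5:**
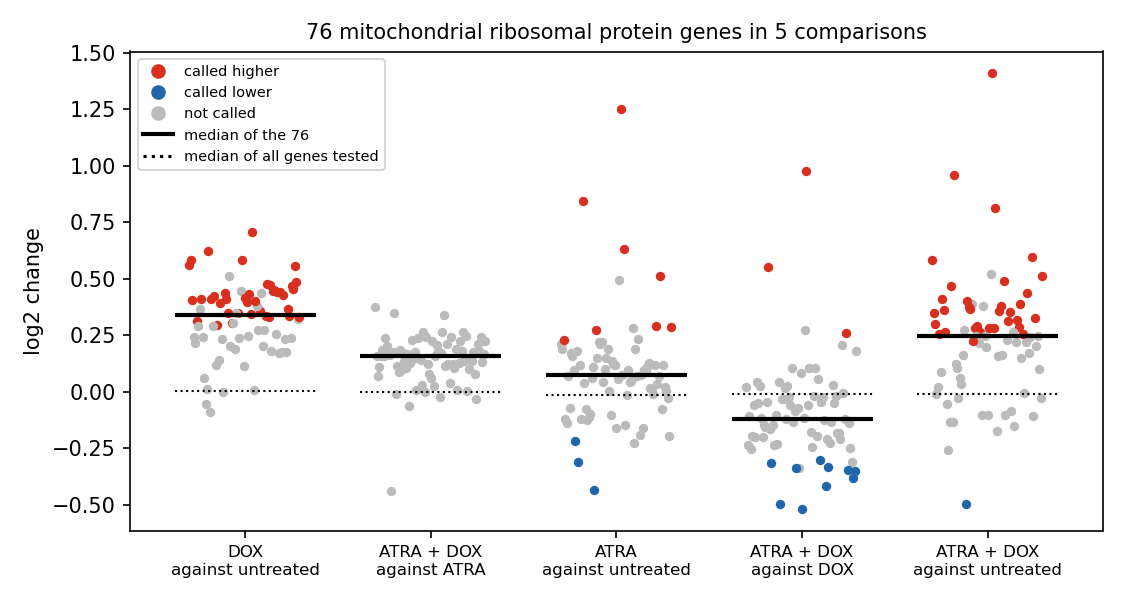
The log2 change (y axis) of the 76 tested genes in 5 comparisons (x axis), red where called higher, blue where called lower and grey otherwise. Solid lines are the medians of the 76 (0.34, 0.16, 0.07, −0.12 and 0.25 from left to right) and dotted lines those of all genes tested.

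The rest of the mitochondrial translation pathway was read from lists. With DOX, 8.14% of all genes tested were called higher. Of 5 mitoribosome proteins with other names, 3 rose with DOX: CHCHD1 by 0.64 ± 0.12 (adjusted p = 0.00226), AURKAIP1 by 0.50 ± 0.11 and GADD45GIP1 by 0.31 ± 0.10. CHCHD1, a small subunit protein, was at 47.7, 47.9 and 45.4 CPM in untreated and 55.5, 85.9 and 79.5 CPM in DOX libraries, and DOX replicate 1 again stood lowest. Of 26 assembly and rRNA modification genes 4 rose (median 0.17), among them the ribosome silencing partner MALSU1 by 0.41 ± 0.09 and the rRNA methyltransferase MRM3 by 0.35 ± 0.10. In combined against ATRA, 0 of these 5 and 1 of these 26 genes were called, a share near the 4.45% of all genes. The 1 was MALSU1, from 31, 32.4 and 33.5 to 41.7, 43.6 and 38.8 CPM (0.36 ± 0.09, adjusted p = 0.0264).

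Of 18 translation factors and mRNA-binding partners 5 rose with DOX (median 0.14), including the elongation factors GFM1 and GFM2, the initiation factor MTIF3 and SLIRP, an RNA-binding partner of mitochondrial messengers (0.54 ± 0.10, adjusted p = 0.00215). Of 19 genes of aminoacyl-tRNA synthesis 2 rose, HARS2 and IARS2, and of 21 genes of mitochondrial transcription and RNA handling 2 rose, HSD17B10 and FASTK, shares near the 8.14% of all genes called higher. These medians, 0.10 and 0.13, also lay below that of the ribosomal proteins, and a difference between the lists was not tested. Among 20 stress and quality control genes 1 was called higher and 1 lower, where 8.14% and 6.92% of all genes were. HSPE1, the mitochondrial co-chaperonin, rose by 0.79 ± 0.12 (adjusted p = 0.0006). CHAC1, a target of the integrated stress response, was lower at −1.08 ± 0.32 (adjusted p = 0.0289). Its libraries overlapped, at 2.71, 7.46 and 6.19 CPM in untreated and 2.39, 2.36 and 4.22 CPM in DOX. ATF4, TRIB3 and DDIT3, of the same response, were not called. Their means were 522, 29.9 and 20.4 CPM in untreated and 510, 29.8 and 24 CPM in DOX libraries. For comparison, 16 of 84 cytosolic ribosomal protein genes rose (median 0.22), and of 80 nuclear respiratory chain genes 43 rose and 1 fell (median 0.39). A shift mostly in 1 direction was thus shared: 80 of these 84 and 72 of these 80 genes lay above 0.

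With DOX, the RNA of the ribosome went the other way from the messenger RNA of its proteins. Protein was not measured. MT-RNR1 was at 9080, 10300 and 18000 CPM in untreated and 7340, 2980 and 4310 CPM in DOX libraries (−1.35 ± 0.36, edgeR adjusted p = 0.0313), and MT-RNR2 at 16300, 17900 and 27900 against 13900, 7860 and 9050 CPM (−1.01 ± 0.24, adjusted p = 0.00901). In both genes the groups did not overlap, and untreated replicate 3 was far above the others. None of the 13 mitochondrially encoded messenger RNAs was called with DOX alone in edgeR, where 15.1% of all genes were. At an unadjusted p under 0.05, 1 passed, and their median was −0.07. In combined against ATRA, where 2.56% of all genes were called lower, neither ribosomal RNA was called (−0.39 and −0.55). Of the 13 messengers 5 fell: MT-ND4 by −0.80 ± 0.18, MT-CO1 by −0.63 ± 0.15, MT-CYB, MT-ATP6 and MT-ND1. Whether and how ribosomal RNA was removed from the libraries is not given in the sources used here. The part of such a step in these values was not tested.

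With ATRA alone, where 15.7% of all genes were called higher and 13.2% lower, assembly and modification genes were called higher at 3 and lower at 4 of 26, shares near those of all genes, with RCC1L (0.44 ± 0.08) and DDX28 (0.50 ± 0.11), both mitoribosome assembly factors, higher and RPUSD4, a pseudouridine synthase (−0.36 ± 0.08), lower. Of the translation factors 3 rose, GFM1, GFM2 and MTFMT, the formyltransferase for initiator tRNA. Of 20 stress and quality control genes 2 were called higher and 6 lower. The 5 mitoribosome proteins with other names had 0 calls (edgeR; 1 at an unadjusted p under 0.05). Cytosolic ribosomal protein genes had 2 higher and 5 lower calls of 84, at a median of −0.17, and respiratory chain genes 16 higher and 0 lower of 80, at 0.17.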

How the data were processed

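RNA of 12 libraries was sequenced in paired-end mode. The deposited values are whole-number read counts per gene, not normalized; per the submitters' processing notes the authors used FastQC, STAR and HTSeq with GRCh38, and versions, annotation release and strand setting are not given in the sources used here. Of 61487 identifiers, 61369 matched the table of gene names and 58312 GENCODE 29, which gave positions, exon lengths and overlaps; 23 columns were empty. Members, lists and tests were chosen with earlier results of these data known.

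Counts were fitted with edgeR 4.0.16 (R 4.3.3) as 4 group means: filterByExpr kept 16104 genes, TMM scaled libraries, and quasi-likelihood F tests were adjusted by Benjamini-Hochberg over all genes at 0.05. The biological coefficient of variation was 9.54%. Errors of log2 changes are the change over the square root of F; those of CPM are SD, n = 3. Groups of 3 limit the precision. DESeq2 1.42.0, library size alone, no filter, thinning to the smallest library total (2.69 in units of 1e6 counts), each library left out, 1 pair left out, a mitochondrial ribosomal RNA term, a replicate block, a length offset (lowess span 0.3) and the groups of a comparison alone were alternatives. In simulated counts with 1.3-, 1.5- and 2-fold changes, edgeR recovered 35.8, 82.1 and 98.5% for DOX against untreated (15819 genes) and 44.8, 89.6 and 97% for combined against ATRA (15859). The simulation changed a small part of the genes, none of them weakly counted, with 1 spread per gene for all groups. No pair of replicates agreed within sampling noise.

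Named genes were up to 8 called members a direction with the smallest adjusted p in each comparison, the 4 highest and 4 lowest per kilobase, members with fewer than 10 counts in a library, up to 10 members above in both DOX comparisons, and structural examples (stalk, decoding centre, paralogs). MRPL47, MRPL20, MRPS34 and MRPL3 are shown for their promoters, overlap partners by annotation, and pathway genes by list.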

Additional observations from a re-analysis of the deposited data

How the results depend on the processing

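The counts of called mitochondrial ribosomal protein genes depended on depth, on single libraries and on the mitochondrial ribosomal RNA term, and the cause was not tested. Calls over all genes also changed with these settings and are given beside them. For DOX against untreated, 39 became 18 at equal depth and 1 without the pair of untreated and DOX replicates numbered 3. The count was 0 with the term, and leaving out each library gave 8 to 61. Over all genes, 2425 calls became 1080, 174 and 88, and 714 to 4383 with each library left out. For combined against ATRA, 0 became 1 without the filter, 1 with the length offset and 4 with the groups alone. Leaving out each library gave 0 to 4. All-gene calls went from 717 to 679, 851 and 1092, and to 269 to 1048 with each library left out. For ATRA against untreated, 11 became 7 with DESeq2 and 6 without the pair, and leaving out each library gave 5 to 14. All-gene calls went from 4643 to 3959 and 3462, and to 3485 to 5364 with each library left out. With the term, 12 mitochondrial ribosomal protein genes were called (5 higher, 7 lower), and their median turned from 0.07 to −0.01. The term left 4589 calls over all genes. For combined against DOX, 13 became 8 without the filter, 8 at equal depth, 6 without the pair and 7 with the groups alone. Leaving out each library gave 3 to 28. All-gene calls went from 3052 to 2800, 1889, 2621 and 2236, and to 2208 to 3929 with each library left out. For combined against untreated, 34 became 16 at equal depth, 15 without the pair and 9 with the term, with 18 to 40 over left-out libraries. All-gene calls went from 6094 to 3360, 4270 and 3378, with 4393 to 6877 over left-out libraries. For the interaction, leaving out each library gave 0 to 7, where 50 calls over all genes became 19 to 775. The counts of mitochondrial ribosomal protein genes not printed here stayed within 1.5 times of the reported ones.

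The replicate numbers were not taken to pair the libraries: correlations of same-numbered libraries ran from −0.24 to 0.27, 4 of 18 pairs exceeded 0.1, and 4 of 12 libraries correlated best with their own number. With the replicate block the counts were 42, 0, 10, 14, 35 and 0 in the order above. Small changes could be missed. In simulated counts for DOX against untreated (15819 genes) 35.8% of 1.3-fold changes were recovered. A gene that was not called may thus still differ by such a fold. In the simulation 66 or 67 genes were changed by each fold, none of them weakly counted. Depth was not varied, and each gene had 1 spread for all groups. The recovery rates may therefore not hold for these data.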
